A study of Mus musculus with 8 samples.

Results

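The question here is whether lipopolysaccharide (LPS) acts on each gene to the same extent in RAW264.7 cells with and without antibodies against CD36. RAW264.7 is a mouse macrophage-like line, described in the labels as wild type. There were 4 groups of 2 libraries: untreated cells, cells given LPS at 50 ng/mL for 12 h, cells given the antibodies (anti-CD36) at a dilution of 1:100 for 12 h, and cells given LPS together with the antibodies for 12 h (the combination). The labels of the combination state no doses. No group received an antibody of another specificity, and nothing says that replicates were grown apart, so a p-value here reflects library-to-library spread that may be no more than technical. The measure is the interaction, the LPS effect with the antibodies minus the LPS effect without them, on group means of log2(FPKM + 1), where FPKM is fragments per kilobase of transcript scaled to the reads of each library. Taken were the 10289 genes, of 10639 in the table, that reached an FPKM of 1 in 2 or more of the 8 libraries. An interaction of 0 means that the antibodies multiplied a transcript by the same factor whether or not LPS was present, apart from the added 1, which shrinks differences of genes with low values.

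LPS, from the outer membrane of Gram-negative bacteria, is sensed by TLR4 with its partner MD-2 (Ly96) and the carrier CD14. Signalling through MYD88 releases NF-kB and activates MAP kinases, which act on AP-1 factors such as FOS, while signalling through TRIF leads to interferon and to interferon-stimulated genes. CD36 takes up long-chain fatty acids and oxidized low-density lipoprotein, belongs to the class B scavenger receptors and also works as a co-receptor of some Toll-like receptors. An antibody can block its antigen, crosslink it or engage Fc receptors, and these are not distinguished by the groups measured.

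Recovered depth was 47900000 to 71600000 reads per library, so 3 reads in a transcript of 2000 bp equal an FPKM of 0.0209 to 0.0313 (counting error only). The anti-CD36 libraries, which enter every interaction, were the least alike. Their replicates correlated at 0.966 across genes, against 0.992 to 0.997 in the other groups, and the SD of the difference between replicates was 0.45 on the log2 scale, against 0.14 to 0.22. The share of all FPKM taken by mitochondrially encoded transcripts was 15.7% in anti-CD36 replicate 1 and 6.59% in its partner, and 3.28% to 6.62% in the other 6 libraries. Defining macrophage markers were present (20 of 29 listed markers were in the table). Of markers of other cells, the table held 1 of 10 for T and NK cells (Lck), 3 of 8 for B cells (Cd79b, Ighm and Blnk), 1 of 9 for granulocytes and mast cells (Csf3r), 2 of 8 for dendritic cells (Zbtb46 and Fscn1) and 0 of 12 for fibroblasts, epithelium and endothelium. No gene in the table was at 0 in any library, and genes outside the table were not analysed here.

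LPS changed most of the measured genes, and nearly all genes called with and without the antibodies moved in the same direction. The mean LPS effect over both antibody states, which is uncorrelated with the interaction only where the groups vary alike, was called at a limma adjusted p under 0.05 for 6660 genes (64.7% of those tested), 2221 raised and 4439 lowered. The LPS effect was called for 5614 genes without the antibodies (54.6%) and for 4844 with them (47.1%). The 4038 genes called in both states were 71.9% of the former and 83.4% of the latter, and 4028 of them had the same direction. The fit takes 1 spread per gene for all groups, and the anti-CD36 pair, the least alike, enters only the effect with the antibodies. The counts in the antibody states are thus not compared on equal terms. Across all genes the pair of LPS effects, which share no library, had a Spearman rho of 0.884, given as a description because genes are not independent replicates. All 1468 genes with a mean LPS effect of at least 1 had the same sign in both states. They were selected on the mean of that pair of effects, which largely fixes this outcome, so it is given as a description.

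**Figure D1:**
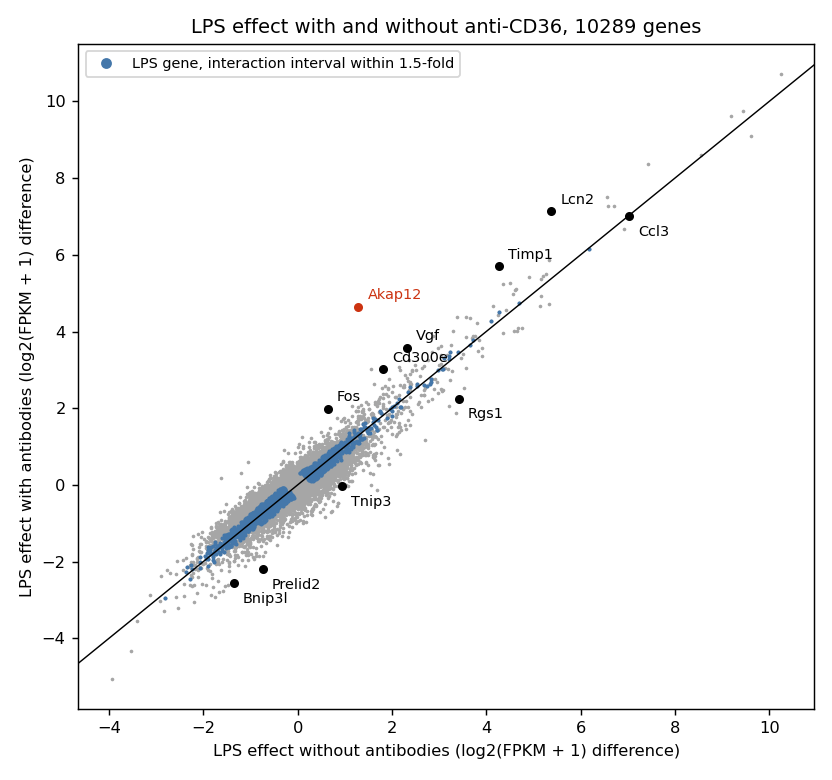
LPS effect of each of 10289 genes without the antibodies (horizontal axis) and with them (vertical axis), as differences of group means of log2(FPKM + 1), with the line of equal effects. Blue points are the 2173 LPS genes whose interaction had a 95% interval within 1.5-fold in either direction, and Akap12 (red), at 1.29 and 4.65, is the gene with a called interaction.

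Of the 6660 LPS effects, 1 was larger with the antibodies by the test and 0 were smaller. The interaction was called by limma for 1 gene (0.00972%), which was 1 higher (0.00972%) and 0 lower (0%), and the next lowest adjusted p was 0.0984. For 2173 LPS genes (32.6% of the 6660, 21.1% of all tested), 675 raised and 1498 lowered, the 95% interval of the interaction lay within 1.5-fold in either direction. These effects were alike to that margin, gene by gene, with no adjustment for the number of intervals. The other 4486, 1545 raised and 2941 lowered, were not resolved: their interaction was not called, and the interval reached beyond 1.5-fold. With a margin of 2-fold, 5667 LPS effects (85.1%) were alike. The interval typically reached 0.45 on the log2 scale to either side of the estimate (median over genes). Among the 1468 genes with a mean LPS effect of at least 1, the median absolute interaction was 0.25 and 367 (25%) were within 1.5-fold. For the 244 genes at 2 or more these were 0.33 and 39 (16%). For the 41 genes at 4 or more they were 0.47 and 5 (12.2%).

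At an unadjusted limma p under 0.05 there were 1396 genes (13.6%), 871 with a higher (8.47%) and 525 with a lower interaction (5.1%). These shares are the background for every gene list below. The split depended on scaling: with mitochondrial transcripts left out, 474 were higher and 723 lower. An interaction of the same sign in all 16 choices of 1 library per group was seen in 3219 genes (31.3%). In the gene lists below, higher and lower refer to the interaction. For a gene that LPS lowered, higher therefore means a smaller or reversed LPS effect with the antibodies.

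Akap12 was the gene with a called interaction. It encodes a scaffold protein that holds protein kinase A and protein kinase C near the plasma membrane (chr10:4266380-4359470, plus strand, GRCm38, protein-coding). Its FPKM was 0.139 and 0.292 in the untreated libraries, 1.95 and 1.98 with LPS, 0.152 and 0.0932 with anti-CD36, and 25.7 and 28.8 with the combination. The combination libraries stood far above all others, while the anti-CD36 and untreated libraries overlapped. From the recovered depth these are about 50 and 135 reads untreated, 772 and 811 with LPS, 47 and 35 with anti-CD36, and 10130 and 9920 with the combination. LPS raised Akap12 by 1.29 ± 0.11 (SE) on the log2(FPKM + 1) scale without the antibodies and by 4.65 ± 0.11 with them. The interaction was 3.36 ± 0.15 (SE), with a 95% interval of 3 to 3.72 and a limma adjusted p of 0.000507. With a pseudocount of 0.1 in place of 1 it was 4.2 with a limma adjusted p of 0.0547, so the call was lost. Over all alternatives the adjusted p ran from 0.000146 to 0.0547. Without anti-CD36 replicate 1, the library with the high mitochondrial share, it was 3.40, and without replicate 2 it was 3.32. In bulk RNA, a larger share of cells that express Akap12 and more Akap12 RNA per cell cannot be told apart.

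The scaffold family and the cAMP pathway around Akap12 gave no other call. Of 22 tested genes of protein kinase A scaffolds and cAMP feedback, 4 had an unadjusted p under 0.05, all with a higher interaction: Akap12, Adcy9, Akap1 and Prkar1a. The list's median was 0.17, against 0.06 over all tested genes. Adcy9, an adenylyl cyclase that makes cAMP, had an FPKM of 3.06 and 2.96 untreated, 2.36 and 2.12 with LPS, 1.18 and 0.899 with anti-CD36, and 2.19 and 2.05 with both. It was thus lowest in the anti-CD36 libraries, and its LPS effect was -0.31 without and 0.62 with the antibodies (interaction 0.93 ± 0.15, limma adjusted p = 0.19). Akap1, which anchors the kinase at mitochondria, had LPS effects of -1.30 and -0.61, and Prkar1a, a regulatory subunit, of -0.26 and 0.14.

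Among LPS-raised genes, those with the lowest p for a higher interaction after Akap12 were Lcn2, Vgf and Cd300e, then Adora2a (interaction 1.02) and Timp1, none of which was called. Lcn2 encodes lipocalin 2, which binds bacterial siderophores and so withholds iron (chr2:32384633-32388252, minus strand, GRCm38). The 250 bases before its RefSeq start (GRCm38.p6, chr2:32387740-32387989, minus strand) are printed because Lcn2 had the second lowest adjusted p, with the match to an NF-kB pattern (GGG, any 5 bases, CC, on either strand) in capitals. That loose pattern was in 61.6% of the promoters of tested genes and in 45.8% of all RefSeq promoters of this length, so its presence is common.
Lcn2 promoter: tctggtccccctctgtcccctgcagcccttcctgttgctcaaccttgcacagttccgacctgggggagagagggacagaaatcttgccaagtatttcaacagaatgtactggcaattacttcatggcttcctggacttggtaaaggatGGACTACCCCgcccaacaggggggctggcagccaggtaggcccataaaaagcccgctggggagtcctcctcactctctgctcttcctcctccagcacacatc
The FPKM of Lcn2 was 0.0959 and 0.0851 untreated, 46.6 and 42.1 with LPS, 0.127 and 0.0399 with anti-CD36, and 168 and 136 with the combination. Both combination libraries were above both LPS libraries, and the other libraries were near the floor, at about 6 to 16 reads. The LPS effect was 5.38 without and 7.13 with the antibodies, an interaction of 1.75 ± 0.18 (SE, 95% interval 1.33 to 2.18, limma adjusted p = 0.0984).

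Timp1 encodes a secreted inhibitor of metalloproteinases (chrX:20870166-20874735, plus strand, GRCm38). Its FPKM was 0.445 and 0.283 untreated, 26.3 and 24.4 with LPS, 0.423 and 0.883 with anti-CD36, and 85.8 and 83.7 with the combination. The combination was highest in both libraries, and the interaction was 1.44 ± 0.21 (SE, limma adjusted p = 0.19) on LPS effects of 4.28 and 5.71. Vgf, the precursor of secreted neuroendocrine peptides, stood at an FPKM of 5.07 and 4.93 with LPS and 14.5 and 12.4 with the combination, and at 0.147 to 0.258 in the other 4 libraries. Its interaction was 1.27 ± 0.16 (SE, limma adjusted p = 0.151). Cd300e, an activating receptor of myeloid cells, was at 6.08 and 6.70 with LPS, 15.1 and 14.5 with the combination and 0.86 to 1.26 elsewhere, with an interaction of 1.21 ± 0.16 (SE, limma adjusted p = 0.19). In all 4 genes the anti-CD36 libraries were far below both groups given LPS, and the combination libraries were above LPS alone. Furthest from the untreated range were 1 anti-CD36 library of Timp1 (0.883, above it) and 1 of Lcn2 (0.0399, below it), both at low values.

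**Figure D2:**
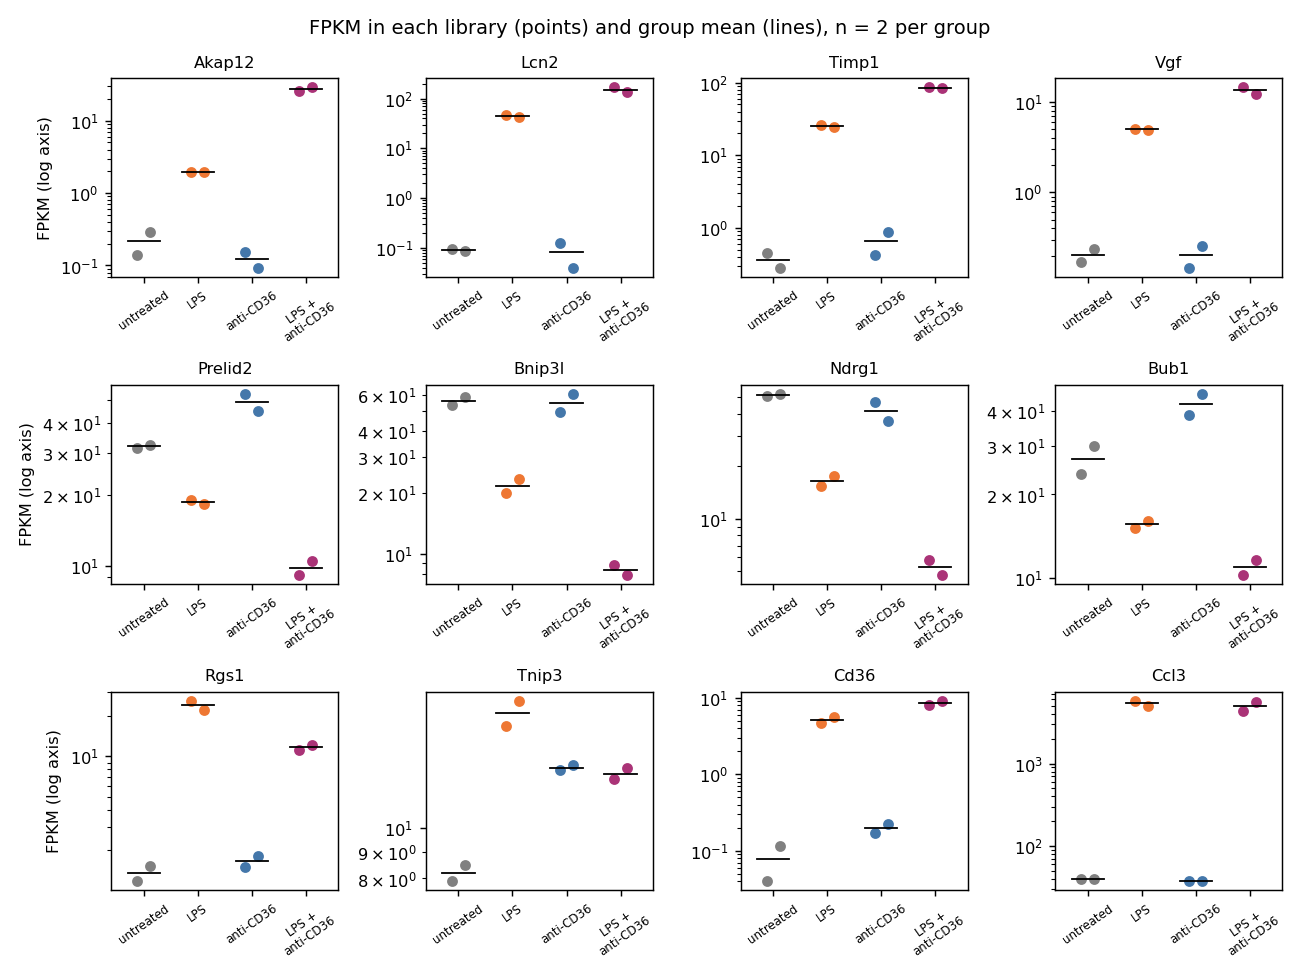
FPKM of 12 genes in each of the 8 libraries (points, log axis) with group means (lines). Akap12, Lcn2, Timp1 and Vgf are highest in the combination, Prelid2, Bnip3l, Ndrg1 and Bub1 are lowest there, Rgs1 and Tnip3 are highest with LPS alone, and Ccl3 has overlapping LPS and combination libraries.

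LPS-raised genes with the lowest p for a smaller effect were Tnip3, Rgs1, Uchl5 and Zfp958, again without a call (limma adjusted p = 0.19 for each). Rgs1, which shortens signalling by G protein-coupled receptors, had an FPKM of 1.17 and 1.52 untreated, 25.9 and 22.2 with LPS, 1.5 and 1.82 with anti-CD36, and 11.2 and 12.2 with the combination. The combination was thus below LPS alone in both libraries, and LPS raised Rgs1 by 3.42 without and 2.25 with the antibodies (interaction -1.17 ± 0.19, SE). Tnip3, an LPS-inducible binding partner of the NF-kB inhibitor A20, went from 7.90 and 8.48 to 15.7 and 17.5 with LPS alone. It stood at 12.9 and 13.2 with anti-CD36 and at 12.4 and 13.0 with the combination, so the antibody groups overlapped. Its LPS effects were 0.94 and -0.03 (interaction -0.97 ± 0.15, SE). Uchl5, a deubiquitinase of the proteasome, and the zinc finger gene Zfp958 had a similar layout, with LPS effects of 1.09 and 0.11 for Uchl5 and 0.85 and -0.02 for Zfp958. In these 3 genes the antibodies without LPS raised the transcript by 0.61, 0.84 and 0.92 (limma adjusted p = 0.017, 0.014 and 0.011), whereas for Rgs1 that effect was 0.19 (limma adjusted p = 0.38).

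LPS-lowered genes with the lowest p for a larger effect were Prelid2, Il13ra1, Clec5a and Bnip3l. Prelid2, of a family that moves phospholipids between mitochondrial membranes, had an FPKM of 31.5 and 32.2 untreated, 18.9 and 18.3 with LPS, 52.7 and 44.9 with anti-CD36, and 9.24 and 10.5 with the combination. It was highest with the antibodies alone and lowest with both, so that its LPS effect was -0.74 without and -2.19 with the antibodies (interaction -1.45 ± 0.17, SE, limma adjusted p = 0.136). Il13ra1, a subunit of the receptor for IL-4 and IL-13, was at 11.7 to 15.2 in 6 libraries and at 6.46 and 7.47 in the combination (interaction -1.13, limma adjusted p = 0.19). Clec5a, a lectin receptor that signals through DAP12, was at 29.5 and 25.9 with anti-CD36 and at 10.8 to 14.8 in the other 6 libraries (interaction -1.05, limma adjusted p = 0.19). The layouts therefore differed: the combination stood apart for Il13ra1, and the antibodies alone stood apart for Clec5a. Without the antibodies, LPS lowered neither by the test, with effects of 0.18 for Il13ra1 and -0.19 for Clec5a (limma adjusted p = 0.28 and 0.21). With the antibodies the effects were -0.96 and -1.24, so both count as LPS-lowered by the mean LPS effect.

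Bnip3l, which marks mitochondria for autophagy and is a target of hypoxia-inducible factors (chr14:66985239-67008877, minus strand, GRCm38), had an FPKM of 53.8 and 58.9 untreated, 19.9 and 23.2 with LPS, 49.3 and 60.5 with anti-CD36, and 8.87 and 7.95 with the combination. The antibody and untreated libraries overlapped, and the combination was below LPS alone. Its LPS effect was -1.35 without and -2.57 with the antibodies (interaction -1.22 ± 0.20, SE, limma adjusted p = 0.19). Of 29 tested hypoxia-inducible factor targets, 0 had a higher and 10 a lower interaction at an unadjusted limma p under 0.05, against 8.47% and 5.1% of all genes, and none was called. The list's median interaction was -0.46, against 0.06 for all genes, and its median LPS effect was -0.59 without and -1.25 with the antibodies. The list's median stayed negative in every alternative, from -0.57 with a pseudocount of 0.1 to -0.24 with a pseudocount of 5, with -0.37 and -0.32 without either anti-CD36 library. The 10 genes were Bnip3l, Bnip3, Ndrg1, Fam162a, Ero1a, Adm, Stc2, Plod2, Egln1 and Pdk1.

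Bnip3, the paralogue of Bnip3l (chr7:138890836-138909519, minus strand, GRCm38), was at an FPKM of 133 and 135 untreated, 32.9 and 45.3 with LPS, 106 and 127 with anti-CD36, and 14.6 and 14.0 with the combination. Its LPS effects were -1.76 and -2.93. Ndrg1, a stress-responsive gene, was at 50.6 and 52.0, 15.4 and 17.7, 46.7 and 36.5, and 5.75 and 4.77 in the same order, with LPS effects of -1.58 and -2.76. Ero1a, an oxidase of disulfide bond formation, was at 103 to 151 in 6 libraries and at 44.2 and 45.1 in the combination. For each of these the combination libraries were the lowest of the 8. Not every member had this layout: Vegfa, the endothelial growth factor, had LPS effects of -1.01 and -0.92, and Car9, a carbonic anhydrase, of 0.43 and 0.41, and both lay within 1.5-fold. Hif1a itself had LPS effects of 1.02 without and 0.84 with the antibodies. Glycolytic and pentose phosphate enzymes, of which hypoxia-inducible factors also drive several, were divided, with 3 higher (Pfkfb4, Hk2 and Pgd) and 3 lower (Tpi1, Pfkp and Pfkl) of 27 tested.

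The promoters of Bnip3 and Ero1a are shown because both carry ACGTG within the 250 bases before the RefSeq start. ACGTG is 1 form of the core of the hypoxia response element, and the other form, GCGTG, was neither marked nor counted. Matches to ACGTG on either strand are in capitals, and in Bnip3 a match on each strand overlaps. The Bnip3 window is chr7:138909507-138909756 and the Ero1a window chr14:45318573-45318822, both on the minus strand of GRCm38.p6.
Bnip3 promoter: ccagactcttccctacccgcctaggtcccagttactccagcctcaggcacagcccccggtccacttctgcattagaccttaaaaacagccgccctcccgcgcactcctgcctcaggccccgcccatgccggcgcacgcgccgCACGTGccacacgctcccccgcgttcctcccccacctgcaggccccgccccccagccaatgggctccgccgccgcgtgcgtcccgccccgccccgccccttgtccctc
Ero1a promoter: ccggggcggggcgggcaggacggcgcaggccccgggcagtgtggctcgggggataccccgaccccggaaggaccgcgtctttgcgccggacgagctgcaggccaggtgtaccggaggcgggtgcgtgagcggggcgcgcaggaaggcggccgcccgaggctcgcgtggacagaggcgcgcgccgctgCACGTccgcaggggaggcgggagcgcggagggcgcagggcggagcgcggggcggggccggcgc
ACGTG was present in 16 of the 34 RefSeq promoters of the listed hypoxia-inducible factor targets (47.1%), in 22.8% of the promoters of tested genes and in 16.6% of all 32851 RefSeq promoters of this length. Timp1, whose interaction was higher (1.44), also carries ACGTG, 82 bases before its start. No promoter was available for Bnip3l and Ndrg1. A match is a description of the sequence and not evidence of binding or of the direction of an interaction.

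LPS-lowered genes with the lowest p for a smaller effect were Cep68, Pfas, Rpap1 and Rab27a. Cep68, of the centrosome linker, had an FPKM of 12.2 and 13.2 untreated, 3.12 and 3.10 with LPS, 7.76 and 8.15 with anti-CD36, and 3.61 and 3.39 with the combination. The antibodies alone lay between untreated and LPS, and its LPS effect was -1.74 without and -0.99 with them (interaction 0.75 ± 0.14, SE, limma adjusted p = 0.208). Pfas, of purine synthesis, had LPS effects of -1.39 and -0.63, Rpap1, an RNA polymerase II partner, of -1.13 and -0.43, and Rab27a, a GTPase of secretory vesicles, of -0.92 and -0.22 (limma adjusted p = 0.209 to 0.210). The antibody effect without LPS was -0.61 for Cep68, -0.76 for Pfas and -0.52 for Rpap1 (limma adjusted p = 0.016, 0.014 and 0.021), and with LPS it was between 0.00 and 0.18 in these 3 genes. For Rab27a the antibody effect was -0.30 without LPS and 0.40 with it (limma adjusted p = 0.082 and 0.087).

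Over the 1396 genes with an unadjusted p under 0.05, the antibody effect was larger in size without LPS for 979 and with LPS for 417. This split was not counted over all tested genes, so it has no background and is not read as a result. The anti-CD36 pair, the least alike, enters only the antibody effect without LPS. Of the 1396, 1051 were LPS genes: 487 were lowered with a smaller effect, 195 raised with a larger effect, 190 raised with a smaller effect and 179 lowered with a larger effect. Lowered genes with a smaller effect were thus 46.3% of these, against 2936 of all 6660 LPS genes (44.1%). Over all tested genes the antibody effect was called for 1405 without LPS (13.7%) and for 183 with LPS (1.78%). These counts use the same 8 libraries as the interaction, and they describe where it sits rather than add to it. The fit takes 1 spread per gene for all groups, whereas the anti-CD36 replicates differed most (SD 0.45, against 0.14 to 0.22). Error is therefore typically understated for antibody effects without LPS and overstated for those with LPS. The counts with and without LPS are thus not compared on equal terms. The same may hold for the adjusted p of antibody effects of single genes above, but 2 libraries cannot show a gene's spread. The anti-CD36 replicates differed more than the untreated ones in Pfas (SD of FPKM 0.815 against 0.165) and Rpap1 (0.531 against 0.201). They differed less in Tnip3 (0.197 against 0.41), Uchl5 (0.506 against 1.5) and Zfp958 (0.0727 against 0.286).

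The strongest LPS responses that were alike within 1.5-fold included main products of the macrophage response. They were a minority of strong responses: of 41 genes with a mean LPS effect of at least 4, 5 (12.2%) were within 1.5-fold. The others were not resolved. Ccl3, a chemokine for monocytes, had an FPKM of 40.1 and 39.7 untreated, 5720 and 4970 with LPS, 37.3 and 37.4 with anti-CD36, and 4390 and 5590 with the combination. LPS and combination libraries overlapped, and the interaction was -0.01 (95% interval -0.58 to 0.55) on LPS effects of 7.03 and 7.01. Acod1, which makes itaconate, was at 1340 and 1580 with LPS and 1670 and 1650 with both, with an interaction of -0.01 (95% interval -0.53 to 0.51). Nfkbiz, the inducible NF-kB cofactor, had LPS effects of 4.69 and 4.75, Zbp1, a sensor of Z-form nucleic acid, of 4.27 and 4.51, and Osm, the cytokine oncostatin M, of 3.21 and 3.35. Slc15a3, Tnc and Lix1 complete the 8 strongest once genes annotated as pseudogenes or predicted genes are left out, with interactions of 0.18, 0.06 and 0.25. Cxcl11, a chemokine gene annotated as a polymorphic pseudogene and so left out, had LPS effects of 3.40 and 3.47. In 55 of 151 refits of these 8 genes under other settings the interval reached past 1.5-fold.

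LPS raised 14 of 15 tested inflammatory cytokines and 11 of 12 chemokines by the mean LPS effect, and none had a called interaction. The cytokine list had 4 members with a higher interaction (Il1a, Il27, Il23a and Lif) and 1 with a lower one (Tnf) at an unadjusted limma p under 0.05, and the chemokine list 2 higher (Ccl22 and Ccrl2) and 0 lower. The medians were 0.14 and 0.07. Il1a, an alarmin of the interleukin-1 family, had an FPKM of 0.0182 and 0.106 untreated, 182 and 180 with LPS, 0.159 and 0.0177 with anti-CD36, and 322 and 401 with the combination, with an interaction of 0.95 ± 0.19 (SE, limma adjusted p = 0.21). Il27 encodes a subunit of interleukin-27 and was at 243 and 181 with LPS and 302 and 309 with both. Tnf was at 1240 and 1340 with LPS and 1060 and 1030 with both, with LPS effects of 4.58 and 4.02 (interaction -0.56, limma adjusted p = 0.347). Ccl22, a chemokine for cells that bear CCR4, was at 124 and 119 with LPS and 278 and 277 with both. Its baseline was 0.309 and 0.240 untreated and 1.06 and 0.555 with anti-CD36, and its interaction of 0.70 turned to -0.03 with a pseudocount of 0.1. Il1b, the interleukin-1 beta precursor, had LPS effects of 9.45 and 9.75, and Csf3, the granulocyte growth factor, of 10.25 and 10.71, and neither passed an unadjusted p of 0.05.

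NF-kB subunits and feedback genes had more positive than negative interactions, 18 against 3 of 21 tested, where 58.1% of all tested genes were positive, and 7 were higher and 1 lower at an unadjusted p under 0.05. The median of 0.23 stayed positive in every alternative, from 0.12 to 0.39 (0.39 without anti-CD36 replicate 1 and 0.12 without replicate 2). Nfkb2, the precursor of the p52 subunit, had an FPKM of 15.9 and 15.6 untreated, 69.9 and 76.2 with LPS, 10.6 and 14.0 with anti-CD36, and 117 and 102 with the combination. It was highest in the combination, with an interaction of 0.93 ± 0.21 (SE, limma adjusted p = 0.261). Nfkbie, which encodes the inhibitor I-kappa-B epsilon, had LPS effects of 0.84 and 1.75, Tnfaip2 of 2.18 and 2.99, and Socs3, the brake on STAT3 signalling, of 3.30 and 4.02. Birc3, Ikbke, Tnfaip3 and Nfkbiz lay within 1.5-fold, and the lower member was Tnip3.

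Among AP-1, EGR and other immediate early genes, 7 of 30 were higher and 2 lower at an unadjusted p under 0.05, with a median of 0.05 that turned to -0.03 with quantile normalization and -0.02 with mitochondrial transcripts left out. Fos was at an FPKM of 2.60 and 2.33 untreated, 3.65 and 5.29 with LPS, 2.12 and 2.36 with anti-CD36, and 13.6 and 10.3 with the combination. The combination was highest, and LPS raised Fos by 0.64 without and 1.99 with the antibodies (interaction 1.34 ± 0.25, SE, limma adjusted p = 0.208). Fosl2, a partner of JUN proteins, had LPS effects of -0.16 and 0.61. Myc and Egr3 were the lower members. Myc was at 3.84 and 5.78 with LPS and 2.36 and 1.91 with both, and Egr3 at 2.10 and 2.51 with LPS and 0.687 and 0.793 with both.

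Interferon-stimulated genes were raised by LPS in 36 of 45 tested and had medians of 1.58 without and 1.56 with the antibodies. At an unadjusted p under 0.05, 8 were higher and 2 lower (median interaction 0.14). Oasl1, an antiviral regulator of translation, was at an FPKM of 221 and 234 with LPS and 449 and 442 with both (interaction 0.81, limma adjusted p = 0.21). Stat2, which carries interferon signals to the nucleus, was at 9.52 and 11.8 with LPS, 7.29 and 6.13 with anti-CD36, and 12.7 and 12.8 with both, with LPS effects of -0.06 and 0.84. Ifi44 and Phf11d were the lower members. Mx1 and Irf7 were among 9 members within 1.5-fold. Antimicrobial and mediator genes beside Lcn2 with a higher interaction were Slc11a1, the phagosomal metal transporter, with LPS effects of 0.36 and 1.12, Ass1, of arginine supply, with 1.79 and 2.54, and Ptges, of prostaglandin E2 synthesis, with 1.75 and 2.30. Clec4e, a receptor for mycobacterial lipid, had 3.91 and 3.35, and the list's other lower member was Lyz2, lysozyme.

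**Figure D3:**
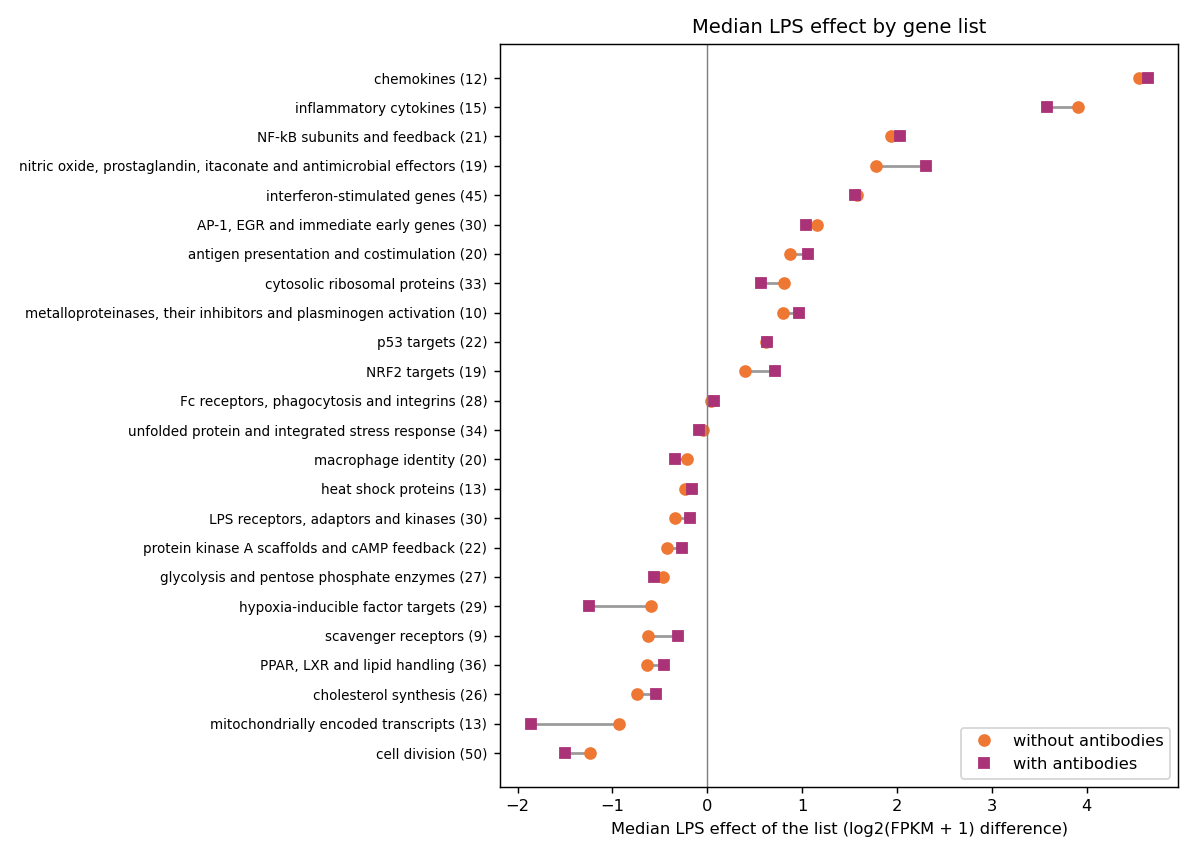
Median LPS effect of each gene list (difference of log2(FPKM + 1), tested members in parentheses) without the antibodies (circles) and with them (squares). The markers nearly coincide for interferon-stimulated genes (1.58 and 1.56) and lie apart for hypoxia-inducible factor targets (-0.59 and -1.25) and for mitochondrially encoded transcripts (-0.93 and -1.86), whose share differed between the anti-CD36 libraries.

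Of 30 tested LPS receptors, adaptors and kinases, 1 was higher (Traf3) and 1 lower (Tlr7) at an unadjusted p under 0.05, 6.67% against 13.6% of all genes, and 8 LPS effects were within 1.5-fold. Tlr4, which fell with LPS, had LPS effects of -1.10 without and -1.38 with the antibodies, an interaction of -0.28 ± 0.21 (SE, 95% interval -0.77 to 0.20, limma adjusted p = 0.582). Cd36, the antibodies' target (chr5:17781690-17888801, minus strand, GRCm38), was at an FPKM of 0.0400 and 0.117 untreated, 4.71 and 5.57 with LPS, 0.169 and 0.223 with anti-CD36, and 7.98 and 9.08 with the combination. LPS raised it in both states, by 2.51 and 2.99, and the combination was above LPS alone in both libraries. The interaction was 0.49 ± 0.16 (SE, 95% interval 0.11 to 0.86, limma adjusted p = 0.305). It turned to -0.04 with a pseudocount of 0.1, which gives more weight to the low baseline of about 8 to 46 reads. Other scavenger receptors with an unadjusted limma p under 0.05 included Lrp1 (higher) and Msr1 (lower). Lrp1 was at 43.1 and 49.6 untreated, 12 and 12.4 with LPS, 21 and 13.7 with anti-CD36, and 8.11 and 6.57 with both. LPS thus lowered it less with the antibodies (-1.84 without and -1.12 with them), although the combination was lowest. Msr1, the class A scavenger receptor, was at 8.61 and 9.24 untreated, 16.6 and 14.7 with anti-CD36, 77.1 and 76.4 with LPS and 79.9 and 93.2 with both, so that its LPS effects were 2.97 and 2.39.

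Of 28 tested Fc receptor, phagocytosis and integrin genes, 4 were higher (Itga5, Itgal, Gas6 and Itgav) and 1 lower (Fcgr3) at an unadjusted p under 0.05. Itga5, the fibronectin receptor subunit, was at an FPKM of 13.0 and 13.0 untreated, 50.4 and 54.0 with LPS, 8.48 and 9.25 with anti-CD36, and 68.8 and 63.8 with the combination, with LPS effects of 1.93 and 2.77 (limma adjusted p = 0.208). Fcgr4, Fcgrt, Lyn and Btk were among 8 members within 1.5-fold. Metalloproteinase and plasminogen activation genes had 4 higher (among them Timp1, Mmp9 and Mmp19) and 1 lower (Plau) of 10 tested. Plau, the activator urokinase, was at 39.0 and 34.9 with LPS and 13.9 and 13.2 with both (interaction -1.10, limma adjusted p = 0.24). Its combination libraries were the lowest of the 8. Of 20 antigen presentation and costimulation genes, Tapbp, Cd40 and Cd80 were higher and Cd274 lower.

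Most lipid genes fell with LPS by the mean LPS effect, 24 of 36 tested PPAR, LXR and lipid handling genes and 23 of 26 cholesterol synthesis genes. At an unadjusted p under 0.05, 4 of the former were higher (Fasn, Acaca, Acly and Cpt1a) and 1 lower (Lpl), and 3 of the latter were higher (among them Srebf2 and Sqle). The share was 13.9% and 11.5%, near the 13.6% of all genes. Fasn, fatty acid synthase, was at an FPKM of 62.6 and 66.5 untreated, 12.6 and 12.8 with LPS, 42.3 and 31.6 with anti-CD36, and 12.6 and 11.3 with both. LPS and combination libraries were alike, and the difference lay in the cells without LPS. Its LPS effects were -2.26 and -1.54 (interaction 0.72, limma adjusted p = 0.278). Apoe and Abcg1, of cholesterol efflux, and Hmgcs1 and Cyp51, of sterol synthesis, lay within 1.5-fold.

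All 50 tested cell division genes fell with LPS by the mean effect, and 15 were within 1.5-fold, among them Ccnb2, Cdc20 and Mcm7. At an unadjusted p under 0.05, 11 were lower and 4 higher. The lower ones included Bub1, Cenpe, Cenpf, Ndc80, Kif11 and Top2a, and the 4 higher ones were Mcm2, Cdc6, Ccne1 and Uhrf1. Bub1, a kinase of the spindle checkpoint, was at an FPKM of 23.7 and 29.8 untreated, 15.2 and 16.1 with LPS, 38.5 and 45.9 with anti-CD36, and 10.3 and 11.6 with the combination. It was highest with the antibodies alone and lowest with both, as Prelid2 was (interaction -1.12 ± 0.21, SE, limma adjusted p = 0.208). Uhrf1, which maintains DNA methylation, was at 81.6 and 84.0, 25.4 and 24.6, 65.7 and 63.0, and 27.5 and 27.4 in the same order. The list's median was -0.08.

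Stress and identity lists had shares near or below the background. At an unadjusted p under 0.05 there were 1 higher (Srxn1) and 0 lower of 19 NRF2 targets, 1 higher (Aen) and 1 lower (Plk2) of 22 p53 targets, 2 higher (Hyou1 and Ern1) and 2 lower (Hsp90b1 and Ddit3) of 34 unfolded protein and integrated stress response genes, 1 lower (Hsp90aa1) of 13 heat shock proteins, and 2 higher (Cebpa and Cx3cr1) and 1 lower (Lyz2) of 20 macrophage identity genes. Srxn1, which repairs oxidized peroxiredoxins, was at an FPKM of 16.3 and 20.2 with LPS and 29.2 and 25.5 with both. Of markers of other cells, Fscn1 had an interaction of 0.43 (limma adjusted p = 0.277), and the summed level of the dendritic cell markers was 0.402 to 0.476 in the cells without LPS, 2.12 and 2.41 with LPS and 3.62 and 3.69 with the combination. Their part in the interactions above was not tested. Lck had LPS effects of 0.84 and 0.88, within 1.5-fold.

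Mitochondrially encoded transcripts had a median interaction of -0.94 over 13 tested and cytosolic ribosomal protein genes of -0.29 over 33. For the former this was -0.44 without anti-CD36 replicate 1 and -1.55 without replicate 2. For the latter it was -0.81 and 0.26, which turned the sign. CYTB, of the respiratory chain, was at an FPKM of 1620 and 2150 untreated, 600 and 674 with LPS, 6340 and 2930 with anti-CD36, and 648 and 748 with the combination. The anti-CD36 libraries differed from each other by more than the other pairs, and no member of either list was called. These genes have copies elsewhere in the genome, and how reads with several matches were counted is unknown, so their values are uncertain.

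**Figure D4:**
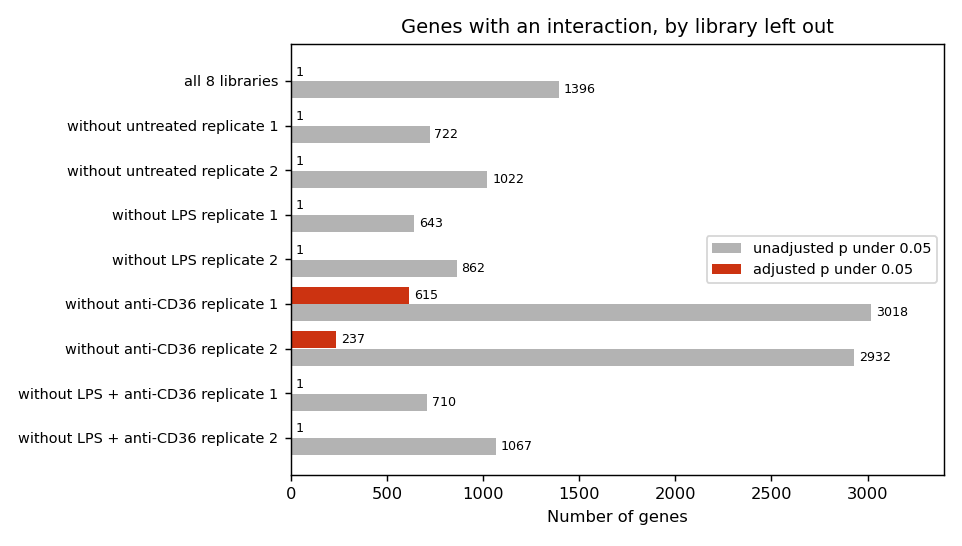
Number of genes with an interaction at an unadjusted p under 0.05 (grey) and at an adjusted p under 0.05 (red) with all 8 libraries and with each library left out in turn. Leaving out anti-CD36 replicate 1 gives 615 calls and replicate 2 gives 237, and each other fit gives 1.

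The number of calls rested on the pair of anti-CD36 libraries. Without anti-CD36 replicate 1, 615 genes were called, 364 higher and 251 lower, of which 158 were LPS effects that were larger and 349 that were smaller with the antibodies. Without replicate 2, 237 were called, 166 higher and 71 lower, with 131 larger and 66 smaller. In these fits the remaining anti-CD36 library has no replicate and is assumed to vary like the other groups, so the spread between the 2 anti-CD36 libraries no longer enters the error. The 75 genes called in both, 43 higher and 32 lower, were 12.2% and 31.6% of the calls, and the fits share 6 libraries. They included Akap12, Lcn2, Timp1, Vgf, Cd300e, Fos, Nfkb2 and Il27 on the higher side and Prelid2, Bnip3l, Bnip3, Ndrg1, Ero1a, Rgs1, Tnip3, Bub1, Plau and Egr3 on the lower side.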

How the data were processed

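The authors deposited 1 table of FPKM values with a column for each of the 8 libraries, so no count test was used. Per the labels' protocols, total RNA was extracted with Trizol, and the labels also name 10x Genomics, although a gene has 1 value in each library. The submitters' processing notes name the aligner HISAT2 (2.0.5) with builds hg38 and mm10. What hg38 was used for, the counter, the annotation and strand use are not given in the sources used here. Samples were grouped by title. Coordinates come from GENCODE M21 (10376 of 10639 symbols matched) and promoters from RefSeq (8071 of 10289 tested genes). Depth was recovered from the steps of single reads in short genes, of which 104 to 119 of 107 to 123 per library were whole within 0.05 reads.

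From the deposited FPKM, limma 3.58.1 in R 4.3.3 was fitted to log2(FPKM + 1) with 4 group means over all 8 libraries (empirical Bayes with a trend, with 4 residual and 3.46 prior degrees of freedom). Benjamini-Hochberg adjustment ran over the 10289 tested genes, and a gene was called at an adjusted p under 0.05. An LPS gene was a gene called for the mean LPS effect. The fit was tested on simulated data with the same spread in all groups. The wider spread of the anti-CD36 pair was not part of that test. Alternatives were other pseudocounts, filters, scalings, variance models, a replicate block, another margin and each library left out.

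Named genes were those with the lowest p, or the largest interaction where called, in each of 4 classes, the 8 strongest LPS effects within 1.5-fold (in both rules a mean FPKM of at least 5 in the highest group, with pseudogenes and predicted genes left out), the member of each list with the largest interaction, and Akap12, Cd36 and Tlr4. Other list members are named as those with an unadjusted p under 0.05 or within 1.5-fold, chosen after their values were seen. The comparison, the lists and the rules were chosen with earlier results of these data known. A few list members are left unreported here.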

Additional observations from a re-analysis of the deposited data

Results flagged for a closer look

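The Akap12 response to LPS differed between cells with and without the antibodies by a test of the difference itself. The interaction was 3.36 on the log2(FPKM + 1) scale, with LPS effects of 1.29 and 4.65 and a limma adjusted p of 0.000507. It was positive in all 16 choices of 1 library per group. These choices recombine the same libraries, and all 1396 genes with an unadjusted limma p under 0.05 kept 1 sign in them. The constant sign therefore adds no support to the p-value. Groups of 2 libraries allow no test for a library that stands apart within its group.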

How the results depend on the processing

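The interaction of Akap12 kept its direction in all alternatives, at 3.27 to 3.45 with 1 library left out and 2.23 to 4.2 otherwise. It lost its call with a pseudocount of 0.1 (4.2, limma adjusted p = 0.0547), where 0 genes were called, 0 higher, and 0 LPS effects were larger, with 1208 within 1.5-fold. With a pseudocount of 5, 6 genes were called, all 6 higher (Akap12, Lcn2, Timp1, Vgf, Cd300e and Adora2a), 6 LPS effects were larger, 4655 were within 1.5-fold and 1997 were not resolved. With the gene length trend removed, 3 were called (Akap12, Lcn2 and Timp1), 3 higher, with 3 larger effects. With a mean FPKM of at least 5, 866 genes had an unadjusted p under 0.05 and 1342 LPS effects were within 1.5-fold. A margin of 2-fold gave 5667 within and 992 not resolved. With 1 library left out, the calls ran from 1 to 615, higher calls from 1 to 364, lower calls from 0 to 251, genes at an unadjusted p under 0.05 from 643 to 3018, larger effects from 1 to 158, smaller effects from 0 to 349, effects within 1.5-fold from 785 to 3235 and not resolved from 3854 to 4975. The extremes of the calls came from the anti-CD36 libraries, which library weights put at 0.269 each, against 1.22 to 2.26 for the others. The cause was not tested.

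Of 809 values of 43 named genes, 748 kept their side of the threshold, 55 passed it, 1 no longer passed it and 5 changed sign: Ccl22 (-0.03) and Cd36 (-0.04) with a pseudocount of 0.1, Lck (-0.01) with mitochondrial transcripts left out, Blnk (0.35 without anti-CD36 replicate 1, -0.64 without replicate 2) and Csf3r (0.00 without replicate 2, 0.43 without replicate 1). Most of the 55 came from the fits without an anti-CD36 library, in which the spread of that pair no longer enters the error. Of 151 values of the 8 genes within 1.5-fold, 96 stayed there. Scaling by other rules moved the median interaction of all genes by at most -0.08.

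The deviations of same-numbered libraries from their group means correlated at -0.645 (untreated and anti-CD36) to 0.53 (untreated and the combination). The signs were mixed, so the replicate numbers were not taken as pairs. With 2 libraries per group the sign follows the numbering, so the larger values are variation shared between groups under another numbering. A block by replicate number does not remove such variation. A replicate block gave 1 call, an Akap12 interaction of 3.36 (limma adjusted p = 0.00574) and 1289 genes at an unadjusted p under 0.05. Depth limits the low baselines of Lcn2 and Il1a, where a few reads set the value, and the pseudocount moves the interactions of Akap12 and Cd36, whose baseline FPKM is low.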

Other observations

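LPS effects of opposite sign were called in 10 genes. Gm17828 (-1.05 and 0.59), Adcy9 (-0.31 and 0.62), Plcb3 (-0.49 and 0.34), Lrp10 (-0.35 and 0.36) and Mtmr9 (-0.28 and 0.30) were lowered without and raised with the antibodies. Kif18a (0.64 and -0.35), Slc17a6 (0.58 and -0.51), Clec7a (0.50 and -0.35), Glrp1 (0.45 and -0.31) and Rnf13 (0.35 and -0.34) were raised without and lowered with them. Clec7a encodes dectin-1, the receptor for fungal beta-glucan, Plcb3 a phospholipase of G protein signalling, and Kif18a a kinesin of the mitotic spindle. The limma adjusted p of their interactions was 0.19 to 0.27, so none was called, and the genes were selected by the pair of LPS effects that make up the interaction. Of the 1576 genes called for LPS only without the antibodies, 0 had an interaction called by limma. Of the same 1576, 433 had an unadjusted limma p under 0.05, where 13.6% of all tested genes did. These genes too were selected by the LPS effects that make up the interaction, which favours a high share. The count is given as a description.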
